A study of Arabidopsis thaliana with 24 samples.

Results

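APS3 (AT4G14680, chromosome 4) and APS4 (AT5G43780, chromosome 5) are paralogous Arabidopsis thaliana genes for ATP sulfurylase. They were taken by name from the known targets of the microRNA miR395, and their ratios of decapped to total mRNA were followed over 6 days of flower formation in 4 sets of tissue. They are 2 of the 13746 genes that the platform annotation pairs with a probe, and 2 of the 10608 genes that were tested. The family has 4 genes in the list used here, of which APS1 and APS2 were paired with no probe and are not analysed here. Each member had 1 probe, so every value below belongs to that probe. Where the probes lie along the transcripts, and on which side of the miR395 site, is not given in the sources used here. In RefSeq (TAIR10.1) APS3 spans 2388 bp with 2 annotated transcripts and APS4 spans 2344 bp with 1.

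ATP sulfurylase joins sulfate to ATP and makes adenosine phosphosulfate, the first step by which plants bring sulfate into metabolism. The product is either reduced to sulfite and sulfide for cysteine, or phosphorylated again to serve as donor for sulfated metabolites and peptides. The microRNA miR395 accumulates when sulfate is short. It guides the cleavage of ATP sulfurylase mRNAs and of the mRNA of the sulfate transporter SULTR2;1, and slicing of this kind leaves a downstream RNA fragment without a cap.

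The plants were 35S:AP1-GR ap1 cal: both floral regulators AP1 and CAL are mutated, and the 35S promoter, active in most tissues, drives AP1 joined to a glucocorticoid receptor domain. They form masses of meristems that start flowers together once dexamethasone activates the fusion. Tissue close to the inflorescence surface was pooled from about 25 plants per time point on days 0, 1, 2, 3, 4 and 5 after treatment with 1 µM dexamethasone, in 4 biologically independent sets. From every sample, decapped mRNA in 1 dye was hybridised on 1 array with polyadenylated total mRNA in the other dye, which gave 24 arrays. All samples share the genotype and the treatment, and no untreated time course is used here, so time, dexamethasone and development cannot be told apart. The table holds ratios and no levels, so neither the amount of either mRNA nor the tissue's marker genes could be checked. The tissue was bulk, and fewer cells of a type cannot be told apart from less RNA per cell.

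Values are log ratios of decapped over total mRNA. The direction is likely but not stated, and so is base 2 of the logarithm; with the opposite direction each "higher" reads "lower". The number of arrays limits the precision. The set 1 arrays of days 1, 2, 3 and 4 stood apart. Across all tested genes their spread (scaled median absolute deviation) was 0.65, 0.72, 0.74 and 0.80, against 0.87 to 1.59 on the other 20 arrays. Their correlation with the mean of the other 3 arrays of the same day was 0.49, 0.31, 0.38 and 0.70, against 0.59 to 0.85. With one another they departed alike: their deviations from the day means, dye effect taken out, correlated at 0.50 to 0.70. Why was not tested. The mean ratios, the day ratios, the changes over days and the difference between the genes are therefore also given without these 4 arrays, and the other results with all 24. That choice was made after the data were seen. Set 1 on day 0 was kept, although it had the widest spread (1.59), a correlation of 0.59 and the lowest gene median (-0.56). It is part of the day 0 mean, from which the changes over days were measured.

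APS3 was richer in the decapped pool on every array. In order of sets 1 to 4, day 0 gave ratios of 2.25, 1.96, 0.90 and 1.50, and day 1 gave 0.93, 2.13, 2.46 and 1.88. The day 2 arrays had 1.33, 2.32, 2.20 and 1.92, those of day 3 had 1.00, 1.95, 2.30 and 1.86. The day 4 arrays had 1.61, 2.45, 2.48 and 1.90, those of day 5 had 1.67, 1.70, 2.29 and 1.68. Set 1 was the lowest of the 4 arrays on days 1, 2, 3, 4 and 5, and set 3 was the lowest on day 0. The 6 days overlapped with one another.

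The mean ratio of APS3 was 1.86 ± 0.47 (SD, n = 24 arrays), with a 95% interval of 1.64 to 2.08 (limma, adjusted p = 3.26e-12). If the logarithm has base 2, this is a 3.63-fold enrichment among decapped mRNAs. The interval and p take the 24 arrays as independent, with an SE of 0.10. From the 4 set means as units the SE was 0.17 and the adjusted p was 7.43e-04 (limma). The ratio lay above 0 on 24 of 24 arrays, as it did without a test for 7.23% of all genes. Of all tested genes 29.7% were called higher, so the call alone does not set APS3 apart. In size, 88 of 10608 genes had a higher mean. Without the set 1 arrays of days 1 to 4 the mean of the 20 arrays was 1.99 ± 0.39.

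**Figure D1:**
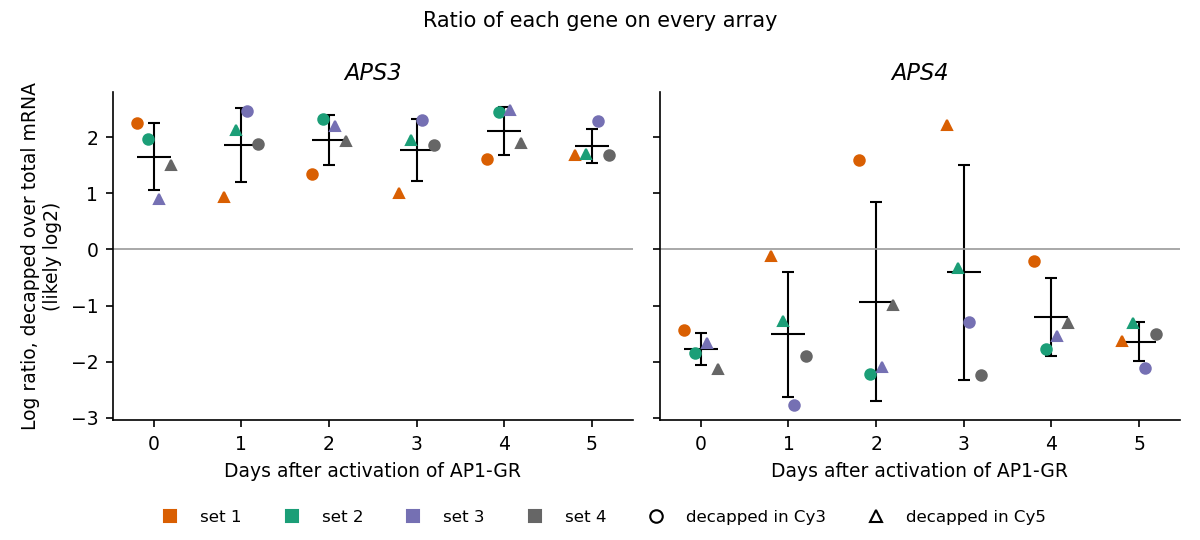
Log ratio of decapped over total mRNA (likely log2) for APS3 and APS4 on each of 24 arrays, by days after activation of AP1-GR. Colour gives the set, the symbol gives the dye of the decapped mRNA, and the bar gives the mean and SD of the 4 arrays of a day. All APS3 values lie between 0.90 and 2.48, and APS4 lies below 0 except for set 1 on days 2 and 3.

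APS4 was poorer in the decapped pool on 22 of 24 arrays, and set 1 departed from the other sets. Its ratios in sets 1 to 4 were -1.44, -1.84, -1.66 and -2.13 at day 0, followed at day 1 by -0.11, -1.28, -2.77 and -1.89. The arrays of day 2 gave 1.59, -2.21, -2.10 and -0.99, those of day 3 gave 2.21, -0.33, -1.29 and -2.24. The arrays of day 4 gave -0.21, -1.77, -1.54 and -1.32, those of day 5 gave -1.64, -1.31, -2.11 and -1.50. The set 1 array was the highest of its day on days 0, 1, 2, 3 and 4. It was above 0 on days 2 and 3, and on day 5 it lay among the other sets.

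The mean ratio of APS4 was -1.25 ± 1.17 (SD, n = 24 arrays), with a 95% interval of -1.73 to -0.77 (limma, adjusted p = 5.89e-05). With base 2 this is a 2.37-fold depletion from the decapped pool. The interval and p take the 24 arrays as independent, with an SE of 0.23. From the 4 set means as units the SE was 0.34 and the adjusted p was 0.0200 (limma). The ratio lay below 0 on 22 of 24 arrays, and 24.4% of all genes did so on at least as many. Of all tested genes 43.5% were called lower and 1970 had a lower mean, so APS4 lay in the lower part of the distribution and not at its edge. Without the set 1 arrays of days 1 to 4 the mean was -1.67 ± 0.53 on 20 arrays, of which 20 lay below 0. In those 4 arrays it was 0.87 ± 1.22, and 2 lay below 0.

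By set, the mean of 6 days for APS4 was 0.07 ± 1.56 in set 1, -1.46 ± 0.65 in set 2, -1.91 ± 0.53 in set 3 and -1.68 ± 0.49 in set 4 (SD, n = 6 days each). For APS3 the set means were 1.47 ± 0.49, 2.09 ± 0.27, 2.10 ± 0.60 and 1.79 ± 0.17. Both genes were thus nearest to 0 in set 1. Over days 1 to 4, set 1 minus the mean of sets 2 to 4 was 2.52 for APS4 and -0.94 for APS3, with a median of 0.19 over all genes. Of all genes, 3.31% had a gap at or above that of APS4, and 7.64% had a gap at or below that of APS3. Among the 2739 genes with a mean ratio of -1 or lower in sets 2 to 4, the median of this gap was 1.19, and 342 of them (12.5%) had a gap at least as large as APS4. Of those 2739 genes, 539 (19.7%) averaged above 0 on the 4 arrays. Among the 1214 genes at 1 or higher in sets 2 to 4, the median gap was -0.67. Both groups of genes were chosen by their values in sets 2 to 4, which the gap subtracts. That choice alone tilts the gap up among the low genes and down among the high ones, by an amount that was not tested. The part of the narrower arrays in the APS4 values was not tested.

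**Figure D2:**
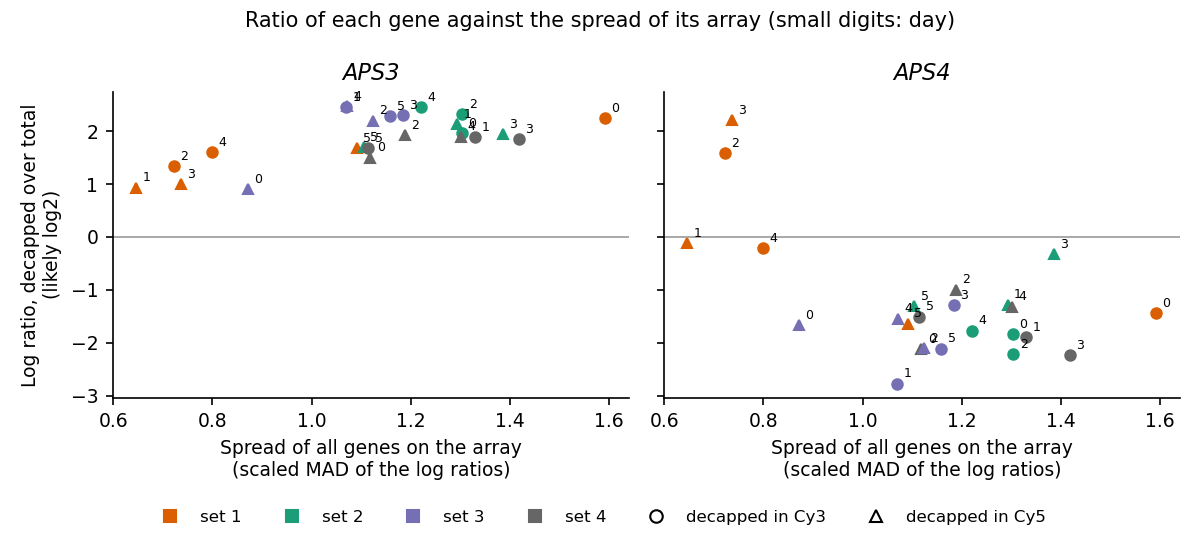
Log ratio of APS3 and APS4 (likely log2, vertical axis) against the spread of all genes on the same array (scaled median absolute deviation, horizontal axis), 1 point per array. Colour gives the set, the symbol the dye of the decapped mRNA and the small digit the day. The 4 arrays with a spread of 0.80 or less are set 1 on days 1 to 4, where APS4 ran from -0.21 to 2.21 and APS3 from 0.93 to 1.61.

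Ranks within an array do not depend on its scale or centring, so each gene was also ranked among the 10608 genes of its array. APS3 lay between the 89.6th and the 98.8th percentile, with a median of 95.9, and in the set 1 arrays of days 1 to 4 it was at 90.2, 93.6, 89.6 and 95.8. It was therefore among the genes richest in decapped mRNA on each array, including the narrow ones. APS4 lay between the 5.69th and the 98.8th percentile, with a median of 15.8. In the set 1 arrays of days 1 to 4 it was at 37.6, 95.7, 98.8 and 46.0, against 5.69 to 52.5 in sets 2 to 4. On days 2 and 3 of set 1 the departure of APS4 was thus one of rank as well as of value. Day 0 of set 1 also departed in rank, at 33.4 against 9.47, 11.4 and 9.74 in sets 2, 3 and 4.

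**Figure D3:**
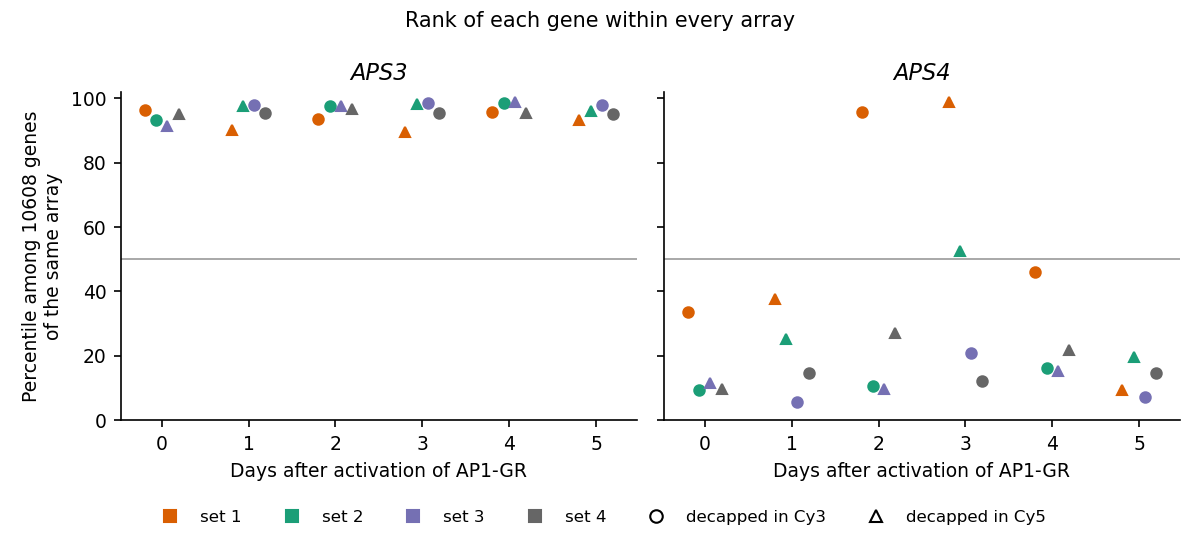
Percentile of APS3 and APS4 among 10608 genes of the same array, by days after activation of AP1-GR, 1 point per array, with colour for the set and the symbol for the dye of the decapped mRNA. APS3 stays at or above 89.6, and APS4 reaches 95.7 and 98.8 in set 1 on days 2 and 3 while its median is 15.8.

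Taken day by day, APS3 was higher on each of the 6 days and APS4 was lower on 3 of them. The day means of APS3 were 1.65 ± 0.59, 1.85 ± 0.66, 1.94 ± 0.44, 1.77 ± 0.55, 2.11 ± 0.43 and 1.83 ± 0.30 on days 0 to 5 (SD, n = 4). By limma its adjusted p ran from 5.83e-06 on day 4 to 6.35e-05 on day 0. The share of all genes called higher was 11.6%, 13.7%, 14.0%, 12.3%, 14.1% and 18.3% on days 0 to 5, and 7.86% were higher on each of them. The day means of APS4 were -1.77 ± 0.29, -1.51 ± 1.12, -0.93 ± 1.77, -0.41 ± 1.91, -1.21 ± 0.69 and -1.64 ± 0.34. APS4 passed on day 0 (limma, adjusted p = 0.0173), day 1 (0.0413) and day 5 (0.0265), and not on day 2 (0.209), day 3 (0.589) or day 4 (0.0982). The share of all genes called lower was 27.7%, 22.2%, 19.7%, 27.1%, 23.8% and 20.8% on days 0 to 5, and 23.4% were lower on at least 3 days. Without the set 1 arrays of days 1 to 4 APS4 was lower on 6 days, with fitted values of -1.86 on day 2, -1.20 on day 3 and -1.63 on day 4 (limma, adjusted p = 2.52e-04, 0.00482 and 6.71e-04). APS3 was also higher on 6 days in that fit, at 2.10, 2.21, 1.97 and 2.34 on days 1 to 4. With all 24 arrays 14.5% of all genes were lower on each of the 6 days, and the share in the smaller fit is not given here. The calls of APS4 by day also ended elsewhere: it passed on 0 days with arrays centred and scaled, and on 0 days without set 2, without set 3 or without set 4. Its day 1 call was lost in 10 of 37 alternatives.

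The time course asks whether the decapped share of either transcript moved as flowers formed. Ordered from the lowest day mean, APS3 ran through days 0, 3, 5, 1, 2 and 4, and each neighbour in this order differed by less than the SD within a day. Its largest difference from day 0 was on day 4, at 0.46 ± 0.36 (SE; 95% interval -0.30 to 1.21; limma, adjusted p = 1.00), and its slope was 0.04 ± 0.06 per day. The day 4 difference was 0.82 without set 1, 0.0827 without set 3 and 0.68 without the set 1 arrays of days 1 to 4, so single sets decide its size. APS4 ran through days 0, 5, 1, 4, 2 and 3. Neighbours in its order also differed by less than the SD within a day. Day 3 lay 1.36 ± 0.80 above day 0 (95% interval -0.31 to 3.02; limma, adjusted p = 0.975), and the slope was 0.06 ± 0.13 per day.

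None of these changes passed. By limma 0 of 14 tests (the F test over days, 5 differences from day 0 and the slope, for each gene) passed with adjustment, and 0 had an unadjusted p under 0.05 with all arrays and no block, the smallest being 0.104 for APS4 on day 3. Over the alternatives, 8 of 504 such tests had an unadjusted p under 0.05, for APS3 on days 2 and 4 and for APS4 on day 3, and none passed with adjustment (limma, smallest adjusted p = 0.66). Among them were APS3 on day 4 with arrays centred and scaled (0.71), with array weights (0.67), without set 1 and without the set 1 arrays of days 1 to 4, and APS4 on day 3 with set as a block (1.36). Over all genes 0% passed any of these tests. The unadjusted shares were 1.34% for the F test, 2.48% for the slope, and 1.86%, 1.97%, 4.78%, 1.81% and 3.11% for days 1 to 5 against day 0. With set 1 left out, the mean of APS4 on days 0 to 5 was -1.88 ± 0.23, -1.98 ± 0.75, -1.77 ± 0.67, -1.28 ± 0.95, -1.54 ± 0.23 and -1.64 ± 0.42 (SD, n = 3), and the day means of APS4 then spanned less than those of all 4 sets. Those of APS3 spanned more, at 1.45 ± 0.53, 2.16 ± 0.29, 2.15 ± 0.21, 2.03 ± 0.23, 2.28 ± 0.33 and 1.89 ± 0.35 on days 0 to 5. The intervals are wide enough to hold changes of more than 1 on the log scale for either gene, and a missed threshold does not show that the ratios stayed the same.

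The paralogues were compared on the same array, where the scale and centring of the array are shared. Each ratio is taken within its own probe, so the comparison is of 2 enrichments and not of 2 levels. Probe position and cross-hybridisation (binding of other transcripts to a probe) do not cancel in a ratio. Whether each probe is specific to its paralogue was not tested. APS3 minus APS4 had set means of 1.40, 3.54, 4.02 and 3.47 in sets 1 to 4, an average of 3.11 ± 1.16 (SD, n = 4 sets). The exact permutation test by sign flips over the 4 sets gave p = 0.13 (two-sided), the smallest it allows with 4 sets. Taking the 24 within-array differences as units, the difference was 3.11 ± 1.50 and the permutation p was 2e-05 (two-sided, 100000 sign flips, the smallest they can give). Arrays of a set were linked across all tested genes, so this p is likely too small.

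APS3 exceeded APS4 on 22 of 24 arrays, with a lowest difference of -1.22, a median of 3.50 and a highest of 5.23. The 2 arrays below 0 were set 1 on day 2 (-0.26) and on day 3 (-1.22). Without the set 1 arrays of days 1 to 4 the difference was 3.66 ± 0.71 on 20 arrays and lay above 0 on 20 of them. On those 4 arrays it was 0.35 ± 1.35, and 2 of them lay below 0.

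Across arrays the ratios of the paralogues went in opposite directions, and this rested on set 1. Arrays of a set were linked across all tested genes, so the p-values below are likely too small. Over 24 arrays Pearson's r was -0.59 (permutation p = 0.00236) and Spearman's rho -0.42 (permutation p = 0.0386), each with 100000 resamples. Over the 10 correlations of this kind, r and rho on 5 choices of arrays, the adjusted p was 0.0118 for this r and 0.0965 for this rho. Without the 2 arrays farthest from the median of APS3, r was -0.70 and rho was -0.42 (permutation p = 3.5e-04 and 0.0551). Pearson's r was -0.74 on the 12 arrays with decapped mRNA in Cy3 (permutation p = 0.00392) and -0.47 on the 12 with it in Cy5 (permutation p = 0.124). On the 18 arrays of sets 2 to 4, r was -0.18 and rho -0.14 (permutation p = 0.459 and 0.587), so no relation was found there. The ratios were not scaled by array, so differences in array spread enter these correlations, and their part was not tested.

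The dyes were exchanged between sets and days, 2 arrays of each orientation a day. APS3 averaged 1.69 ± 0.52 on the 12 arrays with decapped mRNA in Cy5, against 2.03 ± 0.37 on the 12 with it in Cy3. APS4 averaged -1.02 ± 1.18 with Cy5 and -1.47 ± 1.15 with Cy3. The dye term was -0.34 ± 0.21 (SE) for APS3 and 0.46 ± 0.46 for APS4, and neither passed (limma, adjusted p = 0.824 and 0.956), while 0.698% of all genes did and 7.12% had an unadjusted p under 0.05. In both orientations APS3 kept a mean above 0 and APS4 a mean below 0. Between the dye orientations lay 13.8% of the spread of APS3 and 4.00% of that of APS4, with a median of 2.37% over all genes. Of the spread among arrays, 31.6% in APS3 and 46.0% in APS4 lay between sets, with a median of 23.6% over all genes. In the fit with set as a term, the F test over 4 sets, chosen after the values were seen, passed for APS4 (limma, adjusted p = 0.0239) and not for APS3 (0.197), and 15.4% of all genes passed. Between days it was 9.37% and 16.6%, with a median of 13.5%. APS4 was the more variable gene: its SD of 1.17 exceeded that of 86.6% of genes, while the SD of APS3, 0.47, exceeded that of 19.3%.

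**Figure D4:**
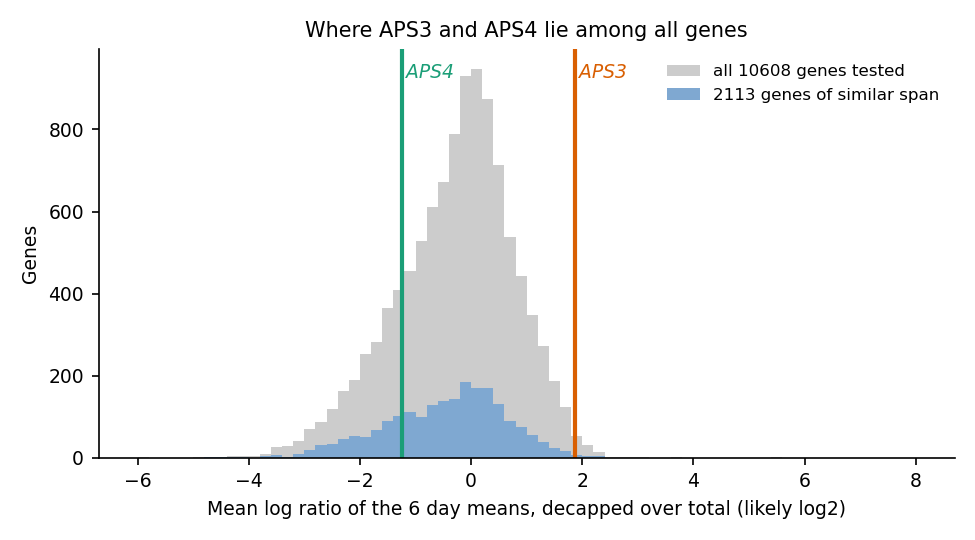
Number of genes (vertical axis) by mean log ratio of decapped over total mRNA (likely log2, bins of equal width) for all 10608 tested genes and, within them, for the 2113 genes in the same span class as APS3 and APS4 (1922 to 2475 bp). Lines mark the genes at 1.86 and -1.25. APS3 lies in the upper tail and APS4 on the lower shoulder.

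The paralogues were of like span: when tested genes were cut into 5 classes by span, both fell in the middle class, 1922 to 2475 bp. The 2113 genes of that class had a median ratio of -0.33, with 25.7% called higher and 49.9% called lower, against a median of -0.16 over all genes. APS3 stood at 1.86 and APS4 at -1.25 within it. From the shortest to the longest class the median ratios were -0.21, -0.38, -0.33, -0.10 and 0.17, so the ratio differed with span. In RefSeq the span of APS3 overlaps that of AT4G14675 by 16 bp, and the span of APS4 overlaps that of AT5G43770 by 74 bp. AT4G14675 was not measured. AT5G43770, included for its position and not by the rule for named genes, had 0.20 ± 0.34 (limma, adjusted p = 0.0415), and AT5G43790 on the other side of APS4 had 0.26 ± 0.38 (0.0128). The low ratio of APS4 was therefore not found at the measured genes beside it.

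Genes of sulfur metabolism were nearly all without a named probe. Of 51 genes in the lists for sulfate uptake, activation, reduction, cysteine and glutathione synthesis, sulfation and the response to low sulfur, 4 were measured: APS3 and APS4 themselves, SIR and AT1G04770. APS3 was higher and 3 were lower, where 29.7% of all genes were higher and 43.5% lower. Their median was -0.94, and the median of all genes was -0.16. No sulfate transporter, no kinase of adenosine phosphosulfate and no reductase of it was measured, and of the 4 listed miR395 targets APS3 and APS4 were measured.

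SIR, sulfite reductase, which makes sulfide from the sulfite formed downstream of ATP sulfurylase, had a lowest ratio of -3.64, a median of -0.75 and a highest of 0.13. Its mean was -0.95 ± 0.93 (SD, n = 24; limma, adjusted p = 1.21e-04), and 21 of 24 arrays lay below 0. Its means in sets 1 to 4 were -0.79, -1.01, -0.89 and -1.11, so set 1 lay close to the others. AT1G04770, which the list holds as the low-sulfur response gene SDI2 and RefSeq leaves without a symbol, ran from -1.82 to 0.66 with a median of -1.04. Its mean was -0.93 ± 0.52 (limma, adjusted p = 6.69e-07), and 23 of 24 arrays lay below 0. APS3 was thus the only member of these 4 above 0 on average.

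The genes whose ratios followed the members most closely over the 24 arrays were listed by Pearson correlation, after each array was centred on its median and the mean of each dye orientation was taken out. For APS3 these were AT3G23325 (r = 0.94), AT4G05240 (0.94), AT4G32560 (0.92), AT1G01170 (0.92) and AT3G17890 (0.92), with 1% of all genes above 0.82. For APS4 they were AT5G08680 (r = 0.90), AT1G04430 (0.89), AT4G20830 (0.89), AT5G11960 (0.89) and AT3G51440 (0.88), with 1% of genes above 0.75. All 5 for APS3 were lower on the set 1 arrays of days 1 to 4 than on the rest, and all 5 for APS4 were higher there. The genes were picked by correlation over arrays that include these 4, where the members moved likewise, so this follows from the choice. AT4G05240, listed for APS3, averaged -0.51 on those 4 arrays and 1.62 on the other 20. AT5G08680, listed for APS4, averaged 1.91 on those 4 arrays and -3.83 on the other 20. The correlation of the paralogues by the same measure was -0.49. The 24 points include the 4 narrow arrays of set 1, and these values are a description of the arrays.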

How the data were processed

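Each of 26102 probes in the deposited table has 1 value per array (-10.53 to 10.07). They were read as log2 ratios already normalized by the authors; how, with which log base and in which direction the sources used here do not give. All 24 sample columns were used. Direction was taken as decapped over total because channel 1 is decapped mRNA on each array, per the labels. Whatever their dyes, 0 pairs of arrays correlated below 0, which shows that the arrays share a direction and not which direction it is. Array medians over all probes lay between -0.14 and 0.30. On each day, the most common set of 4 values shared by many probes was read as no measurement and removed. The platform annotation named 13960 probes with 1 gene, 0 with several, and left 12142 unnamed. Values of the probes of 1 gene were averaged, and genes with fewer than 2 values on any day were left out.

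Ratios were fitted with limma 3.58.1 (lmFit, eBayes; R 4.3.3) over 24 arrays, the model holding 6 day means and a dye term. Two-sided tests were adjusted by Benjamini-Hochberg over all 10608 genes at a threshold of 0.05. P-values take arrays as independent, although arrays of a set were linked. Across all tested genes, deviations of arrays of 1 set correlated with a median of 0.28 over 60 pairs of days. The p-values of the mean ratios from 24 arrays are thus likely too small. Permutation tests and ranks used Python 3.11.15, numpy 2.4.6, pandas 2.3.3 and scipy 1.17.1. The fit was also run on simulated data with independent noise on each array. That run cannot show how a link between arrays of a set affects the p-values. Named genes were APS3 and APS4, measured members of the sulfur lists, and the 5 genes most correlated with each. The members and lists were chosen with earlier results of these data known. Alternatives were blocks for set, centring, scaling, array weights, shared values kept, no dye term, 1 dye orientation, set means, each day alone, and leaving out sets or arrays. APS3 and APS4 have 1 probe each, so no choice among probes arose.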

Additional observations from a re-analysis of the deposited data

Results flagged for a closer look

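Among 30 groups of 4 arrays tested for a single array far from the rest, 2 were marked; chance marks about 1 in 20. APS3 on day 5 was 2.29 in set 3, while the other 3 arrays lay between 1.67 and 1.70. APS3 minus APS4 on day 0 was 2.56 in set 3, while the other 3 arrays lay between 3.62 and 3.80. The set 1 values of APS4 on days 1 to 4 were not marked. On days 1, 2 and 3 the other arrays were spread as well. Those of day 4 lay close together (-1.77, -1.54 and -1.32, with set 1 at -0.21). A mark needs a gap above 0.829 of the range of the 4 values, which set 1 did not reach.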

How the results depend on the processing

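The mean ratio of APS3 stayed higher in 39 of 39 alternatives (1.69 to 2.03, adjusted p at most 7.43e-04) and that of APS4 lower in 39 of 39 (-1.68 to -0.97, adjusted p at most 0.0200, reached from 4 set means), by limma. APS3 passed on 6 days throughout the fits over days; from the 4 arrays of a day alone it did not pass on days 1, 2 and 3 (0.0669, 0.0595 and 0.0877). The 3 days on which APS4 passed became 0 with arrays centred and scaled, 5 with array weights, 6 without the set 1 arrays of days 1 to 4, and 0 to 6 when 1 set or 1 array was left out (6 without set 1, 0 without set 2, set 3 or set 4, and 5 without set 1 of day 2). The day 3 value of APS4 was 0.16 with arrays centred and scaled and ran from -1.26 to 0.15 when sets or arrays were left out. None of the changes over days passed in any of the 36 alternatives run, and small ones turned: APS4 on day 5 minus day 0 was -0.0492 centred and -0.0695 centred and scaled, and on days 1 and 2 it was -0.13 and -0.0869 without the set 1 arrays of days 1 to 4. With sets or arrays left out, APS4 ran from -0.16 to 0.62, from -0.13 to 1.33 and from -0.18 to 0.45 on days 1, 2 and 5, and APS3 from -0.18 to 0.61, from -0.0454 to 0.69, from -0.23 to 0.48 from 0.0827 to 0.82 and from -0.14 to 0.34 on days 1, 2, 3, 4 and 5, with a slope of -0.0017 to 0.063. The difference between the paralogues passed with 24 arrays as units (3.11, permutation p = 2e-05). Its other tests flipped the signs of set means, and the smallest p they allow lies above the threshold. They could not pass whatever the values, so they do not show whether the difference is fragile. The difference kept its sign in every alternative. Set numbers did not pair all arrays: deviations of arrays of 1 set correlated between -0.19 and 0.70, over 0.1 in 48 of 60 pairs of days. With set as a replicate block APS4 passed on 4 days and the mean p-values were 4.49e-12 for APS3 and 1.78e-06 for APS4 (adjusted, limma). Centring moved all genes up by 0.16, to 2.02 for APS3 and -1.09 for APS4. The table gives no signal over background, so dim spots could not be told apart.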
